A study of Homo sapiens with 16 samples.

Results

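The MYC network examined here consists of 10 genes: the activators MYC and MYCL, their partner MAX, the MAX-binding repressors MXD1, MXD3, MXD4, MXI1 and MNT, and the parallel pair MLX and MLXIP. They were chosen by gene symbol, with no measured value in the rule. The table of read counts held 42351 genes, 15067 of which passed the filter on low counts and were tested, and all 10 network genes were among those tested. RNA was sequenced from a lung cancer line carrying wt MET and from a lung adenosquamous line carrying MET∆14, the receptor lacking exon 14, at 0, 3, 6 and 12 h of HGF, the MET ligand. Each of the 8 conditions had 2 libraries, described as biological replicates, and p-values measure the spread between them. The labels name A549 as the wt MET line and NCI-H596 as the MET∆14 line, and the study's text names EKVX where it abbreviates WT. Each MET status is thus a single line, so MET status and all other differences between the lines cannot be told apart. All cells were deprived of serum before HGF, for 12 h by the labels and longer by the study's text, and the HGF dose of these libraries was not given in the sources used here. The 0 h libraries were the only ones without HGF, so HGF and time after it was added cannot be told apart.

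MYC and MYCL bind DNA at E-boxes as pairs with MAX and raise transcription, above all of genes for ribosome assembly, nucleotide synthesis and growth. MXD proteins, MXI1 and MNT pair with the same MAX, bind the same E-boxes and recruit SIN3 and histone deacetylases, which lower transcription. MLX pairs with MLXIP (MondoA), which senses glucose phosphates and controls genes such as TXNIP, and MLX can also pair with MXD1, MXD4 and MNT. MYC is an early target of growth factor receptors and is a short-lived mRNA and protein. MXI1 and MXD4 mRNAs are known targets of FOXO factors.

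Between 13226488 and 21970052 reads were counted per wt MET library and between 10158590 and 23909304 per MET∆14 library. The wt MET libraries had 0 counts of CDKN2A and at most 23 of its neighbour MTAP, a region lost in A549. TP63, KRT5, KRT6A and KRT14 marked the NCI-H596 libraries, with KRT5 between 1740 and 2460 CPM there, that is, counts scaled to a common library size. SOX2, also a squamous marker, stayed at or under 2.35 CPM in both lines. In wt MET the lung lineage gene NKX2-1 reached 1.27 CPM at most, and EPCAM 2.97, where KRT8 was at 493 or more. Of the fibroblast genes, ACTA2 stood between 83.2 and 106 CPM in wt MET and COL1A1 between 15.9 and 33.3 in MET∆14. COL1A2 and DCN stayed at or under 0.202 CPM in both lines. The leukocyte genes PTPRC, CD3E and LYZ never exceeded 2 counts. The replicates of MET∆14 at 12 h stood apart more than any others, with a chi-square per degree of freedom of 34.1 against 2.75 to 9.8 for the other 7 conditions, and results that rest on one of them are given without it as well. Levels are in CPM of the effective library size, and differences are log2 fold changes with their standard errors (SE) and Benjamini-Hochberg adjusted p-values from edgeR's quasi-likelihood test over all 15067 genes. These are bulk RNA measurements, in which fewer cells with an mRNA and less of it per cell cannot be told apart, and protein was not measured.

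Against 0 h, 7 of the 10 genes changed at some time of HGF in cells expressing wt MET and 8 of 10 in cells expressing MET∆14, where 40.3% and 54.1% of all genes tested were called. In wt MET cells MYC and MXD1 were higher on average and MYCL, MAX, MXD4, MXI1 and MNT lower, 2 against 5, where 19.2% of all genes were called higher and 21.1% lower. These directions are signs of the mean over 3, 6 and 12 h, and that of MAX was not stable when single libraries were left out. At 12 h the wt MET means of MYCL (1.29 CPM), MAX (64.9) and MNT (96.5) were above those at 0 h (0.644, 59.1 and 95). In MET∆14 cells MAX, MLX and MLXIP were higher and MYC, MXD3, MXD4, MXI1 and MNT lower, 3 against 5, beside 25.6% and 28.5% of all genes. The response differed between the lines for 7 of the 10 genes, against 37.6% of all genes. MYCL, MAX, MLX and MLXIP had the more positive mean response in MET∆14 (4 genes, background 20.3%), and MYC, MXD1 and MXD3 the more negative (3 genes, background 17.3%). The sign for MYCL, whose mean difference was 0.05, was not stable and turned without wt MET 6 h replicate 1 (-0.05) or MET∆14 0 h replicate 1 (-0.06), 3 h replicate 1 (-0.02) or 12 h replicate 2 (-0.04). A model with line and time as additive terms fits the same time course to both lines. A change in 1 line can thus be enough for a call. It called 5 of 10, where 30.6% of all genes were called: MXD3, MXD4, MXI1 and MNT lower and MLXIP higher. Of these, MXD3 and MLXIP were not called by the test of a change at any time in wt MET. MYC itself was not called by this model (adjusted p = 0.698, and 0.00783 without a filter on low counts), and its 12 h changes in the lines had opposite signs.

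**Figure D1:**
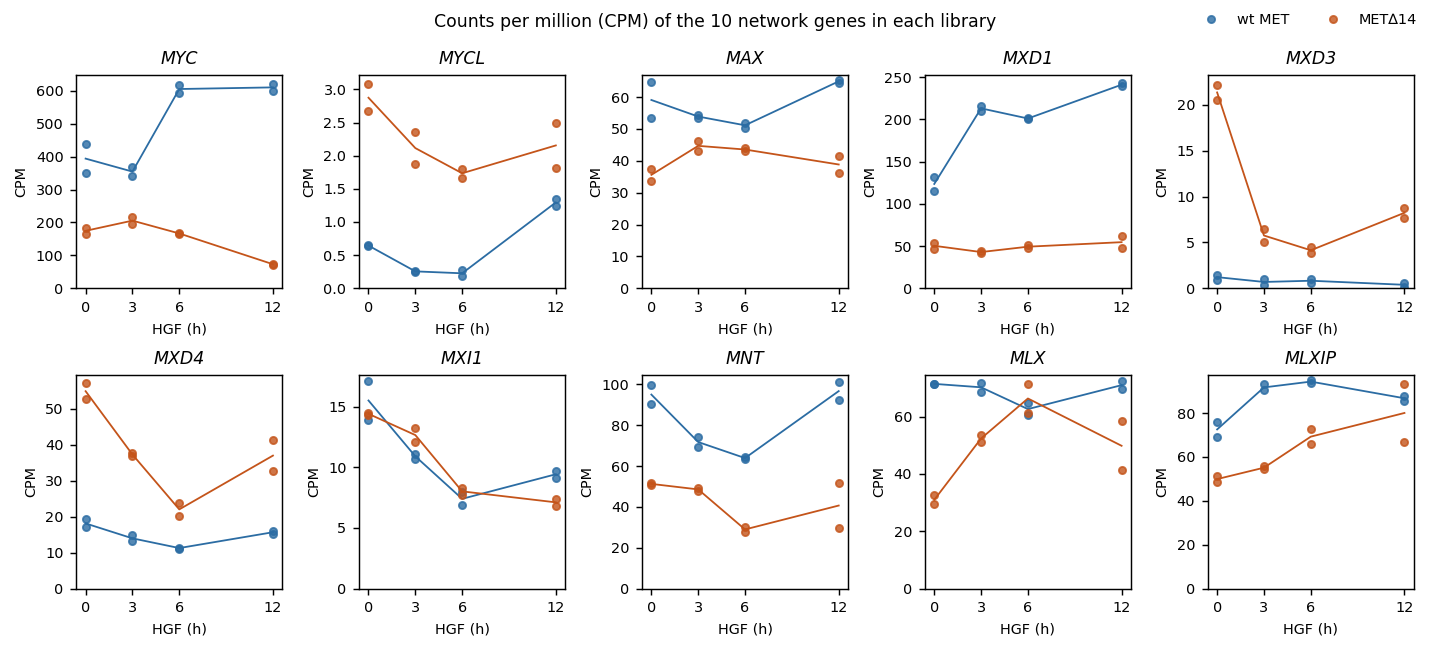
Level of each network gene in CPM (y axes, each from 0) against hours of HGF (x axes), with a point per library and a line through the mean of the 2 libraries, wt MET in blue and MET∆14 in orange. MYC rose to about 610 CPM at 12 h in wt MET and fell to 73 CPM in MET∆14, and MXD3 fell from a mean of 21.3 CPM at 0 h in MET∆14.

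The time at which each gene passed the threshold differed. At 3 h, 2 genes were called in wt MET (MXD1 higher, MXI1 lower, beside 17.4% of all genes) and 4 in MET∆14 (MAX and MLX higher, MXD3 and MXD4 lower, beside 31.7%). At 6 h, 7 genes were called in wt MET, beside 34.2% of all genes: MYC, MXD1 and MLXIP were higher and MYCL, MXD4, MXI1 and MNT lower. In MET∆14, 8 were called at 6 h, beside 44.1%: MAX, MLX and MLXIP were higher and MYCL, MXD3, MXD4, MXI1 and MNT lower. Thus MXD4, MXI1 and MNT were called lower in both lines at 6 h. At 12 h, 5 were called in wt MET (MYC, MYCL and MXD1 higher, MXD3 and MXI1 lower, beside 35.1%) and 6 in MET∆14 (MLX and MLXIP higher, MYC, MXD3, MXD4 and MXI1 lower, beside 38.3%). Some of these counts rest on single libraries. The 3 h count in wt MET was 5 without either MET∆14 12 h library, which enter through the shared estimate of spread, and 1 without wt MET 0 h replicate 1 or either wt MET 3 h library. The 6 h count in wt MET was 4 without wt MET 0 h replicate 2 or either wt MET 6 h library, that in MET∆14 was 5 without MET∆14 6 h replicate 2, and the 12 h count in wt MET was 3 without wt MET 0 h replicate 2 or wt MET 12 h replicate 1.

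**Figure D2:**
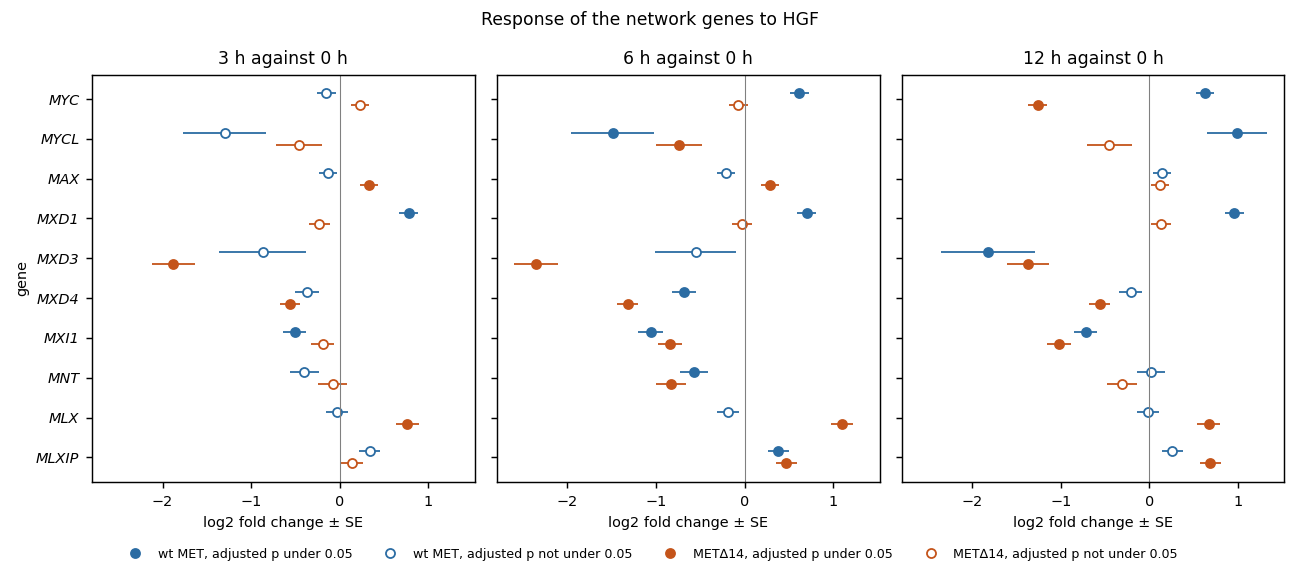
Log2 fold change against 0 h of the same line (x axis, bars ± SE) for each gene (y axis) at 3, 6 and 12 h of HGF. Filled points had an adjusted p under 0.05 in edgeR's test, open points did not, and at 12 h MYC lay at 0.63 in wt MET and at -1.26 in MET∆14.

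MYC, the transcription factor at the centre of the network, stood at 349 and 439 CPM in the untreated wt MET libraries, 368 and 341 CPM at 3 h, 592 and 619 CPM at 6 h, and 622 and 599 CPM at 12 h. The 4 libraries of 6 and 12 h were all above the 4 earlier ones. The log2 fold change was -0.15 at 3 h (SE 0.104, adjusted p = 0.36), 0.62 at 6 h (SE 0.104, adjusted p = 0.000345) and 0.63 at 12 h (SE 0.104, adjusted p = 0.000312), with most of the rise between 3 and 6 h (0.77, adjusted p = 0.000961). In the MET∆14 libraries MYC was at 165 and 184 CPM at 0 h, 217 and 194 CPM at 3 h, 164 and 169 CPM at 6 h, and 71.2 and 74.8 CPM at 12 h. Both 12 h libraries lay far below the other 6. MYC was 2.39-fold lower at 12 h than at 0 h (-1.26 on the log2 scale, SE 0.109, adjusted p = 8.62e-07), and the fall came between 6 and 12 h (-1.19, adjusted p = 9.63e-06). Its early values in this line, 0.23 at 3 h (adjusted p = 0.109) and -0.07 at 6 h, did not pass the threshold, and 0.23 passed it narrowly without either wt MET 0 h library (0.0473 and 0.0495) or without MET∆14 12 h replicate 1 (0.0476). The difference between the responses at 12 h was -1.89 (SE 0.15, adjusted p = 1.5e-06), and over all times the interaction had an adjusted p of 3.83e-07. Averaged over the 3 times, MYC was 0.37 higher in wt MET (adjusted p = 0.00388) and 0.36 lower in MET∆14 (mean -0.36, adjusted p = 0.00255). With the first wt MET 0 h library left out, the former value was 0.21 (adjusted p = 0.117), and with the second MET∆14 0 h library left out, the latter was -0.29 (0.0737).

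Before HGF, the MET∆14 line had less MYC mRNA than the wt MET line (log2 difference -1.17, SE 0.106, adjusted p = 5.34e-08). Of the 10 genes, 9 differed between the lines at 0 h, where 80.2% of all genes did. MYC, MAX, MXD1, MNT, MLX and MLXIP were lower in MET∆14 (6 genes, background 39.6%) and MYCL, MXD3 and MXD4 higher (3 genes, background 40.6%), while the difference for MXI1, -0.11 (SE 0.128, adjusted p = 0.444), was not called.

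MYCL, the L-type paralogue first known from lung cancer, was barely expressed, with 3 to 26 counts in the wt MET libraries and 24 to 62 in the MET∆14 libraries. In wt MET it had 9 and 9 counts at 0 h, 4 and 3 at 3 h, 3 and 4 at 6 h, and 26 and 20 at 12 h. It was thus lowest at 3 and 6 h and highest at 12 h, with no overlap between these times. The change at any time was called (adjusted p = 0.000362), but its single-time values of -1.49 at 6 h (adjusted p = 0.0371) and 0.99 at 12 h (0.0332) lost the call in DESeq2 (0.108 and 0.142) and without any 1 of the 4 libraries compared. In MET∆14 MYCL went from 2.88 ± 0.288 CPM (SD, n = 2) to 1.73 ± 0.0888 at 6 h (-0.74, adjusted p = 0.0284, 0.174 in DESeq2). Its change at any time was not called there (adjusted p = 0.104), while the response differed between the lines (interaction adjusted p = 0.00368).

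MAX, the obligate partner of MYC and of the repressors, changed little. It ranged from 50.3 to 65.5 CPM over the wt MET libraries and from 33.7 to 46.2 CPM over the MET∆14 libraries, and no log2 fold change against 0 h was beyond 0.33. The calls at any time in wt MET (adjusted p = 0.0442) and in MET∆14 (0.0412) were lost in DESeq2 (0.0706 and 0.0562), with the replicate block (0.0549 and 0.0514), and without most single libraries. The 3 h value in MET∆14, 0.33 (adjusted p = 0.0246), also lost its call without MET∆14 0 h replicate 2 (0.206) or either 3 h library (0.153 and 0.0596). The interaction was called (adjusted p = 0.0105), with a response 0.46 more positive in MET∆14 at 3 h and 0.50 at 6 h. The 3 h difference (adjusted p = 0.0391 in edgeR) lost its call without a filter on low counts (0.0619) and without most single libraries. Exons of MAX (chromosome 14, 65006174 to 65102695) share 13.1% of their bases with FNTB and CHURC1-FNTB, which lie on the other strand, and reads there could be counted for either gene.

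MXD1, a repressor known to rise as cells leave the cycle and differentiate, rose in wt MET, and its response differed between the lines. In wt MET it stood at 115 and 132 CPM at 0 h, 210 and 216 CPM at 3 h, 202 and 200 CPM at 6 h, and 243 and 239 CPM at 12 h. Every treated wt MET library was above both untreated ones. The log2 fold changes were 0.78 (SE 0.108, adjusted p = 0.000145), 0.70 (SE 0.108, 0.000168) and 0.96 (SE 0.108, 1.46e-05), so MXD1 rose by 3 h, before MYC did. In MET∆14 MXD1 stayed between 41.8 and 61.9 CPM, and the values at 3, 6 and 12 h overlapped those at 0 h or lay just under them (-0.23, -0.03 and 0.13, adjusted p of 0.146, 0.886 and 0.397). Its change at any time (adjusted p = 0.0845) was called without replicate 2 of MET∆14 at 12 h (0.000899), when the 12 h value was 0.29 (0.0161). The interaction had an adjusted p of 0.000641, and the mean response was 0.86 lower in MET∆14 (difference -0.86, SE 0.128, adjusted p = 0.00016). Exons of MXD1 (chromosome 2, 69897688 to 69942945) share 3.7% of their bases with SNRNP27.

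MXD3, a member expressed mostly in dividing cells, was 17.4-fold higher in MET∆14 than in wt MET at 0 h (log2 difference 4.12, SE 0.307, adjusted p = 5.52e-09). It stood at 20.5 and 22.2 CPM before HGF, 5.05 and 6.45 CPM at 3 h, 3.82 and 4.46 CPM at 6 h, and 8.76 and 7.69 CPM at 12 h in MET∆14. All 6 treated libraries were far under the untreated ones, and the 12 h libraries were above those of 3 and 6 h. The log2 fold changes were -1.88 (SE 0.244, adjusted p = 3.24e-05), -2.35 (SE 0.25, 2.75e-06) and -1.37 (SE 0.237, 0.000378), the last a 2.58-fold drop. In wt MET, MXD3 had 3 to 21 counts per library. Its log2 fold change was -1.82 at 12 h (adjusted p = 0.0154), a call lost without wt MET 12 h replicate 1 (adjusted p = 0.214), with a value of -3.02 (0.00531) without its replicate 2 and -1.46 (0.131) without wt MET 0 h replicate 2. The interaction (adjusted p = 0.0268) was lost without wt MET 6 h replicate 1 (0.158), wt MET 0 h replicate 1 (0.0509) or MET∆14 6 h replicate 1 (0.0548). Its exons (chromosome 5, 177301461 to 177312757) share 19.5% of their bases with RAB24 on its own strand and 24.2% with PRELID1 on the other, which leaves its counts uncertain.

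MXD4, also an MXD repressor and a known FOXO target, dipped in both lines with its lowest level at 6 h. In MET∆14 it stood at 57.1 and 52.6 CPM at 0 h, 37.7 and 36.8 CPM at 3 h, 23.7 and 20.3 CPM at 6 h, and 41.3 and 32.6 CPM at 12 h. The untreated libraries were the highest and the 6 h libraries the lowest, with 3 and 12 h between them. The log2 fold changes were -0.56 (SE 0.116, adjusted p = 0.00189), -1.32 (SE 0.12, 5.54e-07) and -0.56 (SE 0.117, 0.00157), and the return from 6 to 12 h was 0.77 (adjusted p = 0.000739). The wt MET level went from 18.1 ± 1.56 CPM to 11.2 ± 0.194 at 6 h (-0.68, SE 0.136, adjusted p = 0.00136) and was back at 15.7 ± 0.638 at 12 h (-0.21, adjusted p = 0.246). At 6 h the fall was deeper in MET∆14 (difference -0.64, SE 0.181, adjusted p = 0.0143, 0.0581 without MET∆14 6 h replicate 2), whereas the interaction over all times just missed the threshold (0.0527) and passed it under 8 alternatives, the replicate block among them (0.0296).

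MXI1 (MXD2), a repressor whose mRNA is also a known FOXO target, fell in both lines from similar starting values. In wt MET it stood at 17.1 and 13.9 CPM at 0 h, 10.7 and 11.1 CPM at 3 h, 7.93 and 6.86 CPM at 6 h, and 9.15 and 9.69 CPM at 12 h. In MET∆14 the same times gave 14.3 and 14.5, 13.2 and 12.1, 7.71 and 8.31, and 6.79 and 7.42 CPM. Every treated library was below the untreated libraries of its line. The falls in wt MET were -0.51 at 3 h (adjusted p = 0.0162, lost without wt MET 0 h replicate 1 at 0.163 or either 3 h library at 0.121 and 0.0832), -1.06 at 6 h (SE 0.137, 3.68e-05) and -0.72 at 12 h (SE 0.133, 0.000733). Those in MET∆14 were -0.84 at 6 h (SE 0.133, 0.00013) and -1.02 at 12 h (SE 0.139, 4.63e-05), with -0.19 at 3 h not called (0.301). The mean responses, -0.76 and -0.68, differed by 0.08 (SE 0.152, adjusted p = 0.756), and the interaction was not called (0.073).

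MNT, the widely expressed repressor that opposes MYC in most cells, dipped at 6 h. In wt MET it stood at 90.2 and 99.8 CPM at 0 h, 74.2 and 69.3 CPM at 3 h, 64.2 and 63.6 CPM at 6 h, and 101 and 92.4 CPM at 12 h. The 3 and 6 h libraries were below both others, and 12 h overlapped 0 h. The fall at 6 h was -0.57 in wt MET (SE 0.161, adjusted p = 0.0132) and -0.83 in MET∆14 (SE 0.169, 0.00115). The wt MET call was lost without either 6 h library (0.0746 and 0.0783) or without wt MET 0 h replicate 2 (0.0964). In MET∆14 MNT stood at 51.6 and 50.9 CPM at 0 h, 47.9 and 49.2 CPM at 3 h, 30.3 and 27.6 CPM at 6 h, and 51.6 and 29.7 CPM at 12 h. The 12 h replicates thus lay at the 0 h and the 6 h level, and the 12 h log2 fold change of -0.31 (adjusted p = 0.159) became -0.79 (7.77e-06) without replicate 1. The interaction, at 0.111, was called without either of these libraries (3.12e-06 without replicate 1 and 0.0013 without replicate 2).

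Since MYC, MAX and their relatives read the E-box CACGTG, the start regions of the network genes themselves were searched for these 6 letters, which read the same on both strands. RefSeq windows of 300 bases (250 before and 50 after the annotated start, GRCh38.p14) were at hand for 9 of the 10 genes, and MYC is named only. MXD4, MNT and MLX, 3 of the 9 genes (33.3%), held the E-box, beside 12.4% of the 11036 tested genes with a window and 8.77% of all 27305 genes with one. Their upstream windows are shown because they hold the E-box, which is in capitals, and bases inside the annotated gene are left out. Counted from the RefSeq start, which for MNT and MLX lies inside the gene as GENCODE bounds it, the first base of the E-box lies at -238 in MXD4 (strand -, chr4:2262110-2262359), at -193 in MNT (strand -, chr17:2401105-2401310) and at -50 in MLX (strand +, chr17:42566850-42567071).
MXD4: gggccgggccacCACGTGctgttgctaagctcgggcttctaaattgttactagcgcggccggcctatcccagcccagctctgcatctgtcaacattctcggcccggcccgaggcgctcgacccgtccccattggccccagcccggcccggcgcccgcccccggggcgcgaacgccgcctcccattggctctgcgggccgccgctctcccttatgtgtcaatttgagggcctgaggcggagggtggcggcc
MNT: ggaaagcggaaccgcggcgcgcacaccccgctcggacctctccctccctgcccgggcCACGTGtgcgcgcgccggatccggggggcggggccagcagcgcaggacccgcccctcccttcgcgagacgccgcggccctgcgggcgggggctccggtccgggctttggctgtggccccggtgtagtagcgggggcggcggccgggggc
MLX: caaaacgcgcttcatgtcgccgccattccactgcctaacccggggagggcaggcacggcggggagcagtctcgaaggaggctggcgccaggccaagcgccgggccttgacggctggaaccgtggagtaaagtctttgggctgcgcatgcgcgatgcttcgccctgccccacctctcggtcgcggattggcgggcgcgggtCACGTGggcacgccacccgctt
The FOXO core TGTTTAC, searched on both strands, was found in windows of 1 of the 9 genes, MXI1 (11.1%), beside 3.5% of tested genes, at 2 of the 3 annotated starts of MXI1. A match of letters is a description of the sequence and says nothing of binding in these cells.

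MLX, the partner of MLXIP, rose in MET∆14 and not measurably in wt MET. In MET∆14 it stood at 29.4 and 32.5 CPM at 0 h, 51 and 53.7 CPM at 3 h, 61.3 and 71.3 CPM at 6 h, and 41.3 and 58.3 CPM at 12 h. All treated libraries exceeded the untreated ones, and the 12 h libraries straddled the 3 h level. The log2 fold changes were 0.76 (SE 0.13, adjusted p = 0.000391), 1.10 (SE 0.128, 6.93e-06) and 0.67 (SE 0.131, 0.000922), the last 0.40 (0.00303) without MET∆14 12 h replicate 2. The wt MET libraries lay between 60.5 and 72.4 CPM at all times, the highest point of MET∆14 falling inside that range (change at any time, adjusted p = 0.524). The interaction had an adjusted p of 0.000425. Its exons share 18.2% of their bases with PSMC3IP on the other strand, where reads cannot be assigned with certainty.

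MLXIP (chromosome 12, 122078756 to 122147344), the glucose sensor MondoA, rose more slowly in MET∆14. It stood at 48.4 and 51.4 CPM at 0 h, 55.8 and 54.4 CPM at 3 h, 65.7 and 72.8 CPM at 6 h, and 93.4 and 66.7 CPM at 12 h. All treated libraries were above the untreated ones, with a wide gap between the 12 h replicates. The log2 fold change was 0.47 at 6 h (SE 0.119, adjusted p = 0.0046, 0.0572 without MET∆14 6 h replicate 2) and 0.69 at 12 h (SE 0.12, 0.000379), the latter 0.42 (0.00117) without replicate 1 of 12 h. In wt MET MLXIP went from 72.6 ± 4.83 to 94.3 ± 1.08 CPM at 6 h (0.38, adjusted p = 0.0221), a call lost without wt MET 0 h replicate 2 (0.0997) or either 6 h library (0.0593 and 0.0761). Its change at any time in wt MET missed the threshold (0.0642) and passed it in DESeq2 (0.0194) and without either MET∆14 12 h library. The interaction (0.0411) was lost when any of 9 single libraries was left out.

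Divided by the length of the longest annotated transcript, which allows levels to be compared between genes, MYC was the most abundant of the 10 mRNAs at 0 h in both lines. It stood at 106 ± 17.1 CPM per kb in wt MET (SD, n = 2) and 46.9 ± 3.5 in MET∆14. In wt MET, MLX followed at 27.6, then MXD1 (22.2 ± 2.16), MNT (19.3 ± 1.38) and MAX (18.7 ± 2.56), and of these only the libraries of MNT and MAX overlapped. MLXIP stood at 8.65 ± 0.575, MXI1 and MXD4 overlapped at 4.47 ± 0.641 and 4.27 ± 0.369, and MXD3 (0.532) and MYCL (0.183) were lowest. In MET∆14 the order after MYC was MXD4 (13 ± 0.753), MLX (12 ± 0.858), MAX (11.3 ± 0.856) and MNT (10.4 ± 0.1), where the libraries of MLX overlapped those of MXD4 and of MAX, and MNT lay below MAX. MXD3 (9.35 ± 0.523) and MXD1 (9.01 ± 0.877) overlapped as well, and MLXIP (5.95), MXI1 (4.14) and MYCL (0.817) closed the order. The order below MYC depends on the length used. With the length of all exons, MXD1 stood above MLX in wt MET (19.5 and 16.8 CPM per kb), and in MET∆14 MXD1 (7.91) stood next to MXD4 (7.98) and above MLX (7.28), MNT (5.89), MAX (5.7) and MXD3 (4.49).

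The repressor pool had a different make-up in each line, as the stacked bars of repressor levels show. In untreated wt MET cells MXD1 made up 43.7% ± 1.9 (SD, n = 2) and MNT 38% ± 0.7 of the summed length-scaled level of the 5 repressors. In untreated MET∆14 cells MXD4 held 28.3% ± 0.92, MNT 22.7% ± 0.36, MXD3 20.4% ± 1.7 and MXD1 19.6% ± 1.4. With the length of all exons MXD1 made up 54.2% ± 2 and MNT 30.4% ± 0.35 in wt MET, and in MET∆14 MXD4 held 27.8% ± 0.63, MXD1 27.5% ± 1.7, MNT 20.5% ± 0.53 and MXD3 15.7% ± 1.4. With HGF, MXD1 grew to 66.6% ± 0.41 of the wt MET pool at 6 h, while MXD3 shrank to 7.56% ± 0.9 of the MET∆14 pool. The MXD1 share grew in MET∆14 too, to 36.7% ± 2.1 at 6 h. Its own level there was 9.01 ± 0.877 CPM per kb at 0 h and 8.82 ± 0.406 at 6 h. The sum itself was 50.7 ± 2.69, 59.5 ± 0.113, 54.2 ± 0.76 and 69.4 ± 1.22 CPM per kb at 0, 3, 6 and 12 h in wt MET, and 45.9 ± 1.17, 32.5 ± 0.00907, 24 ± 0.236 and 32.4 ± 6.67 in MET∆14.

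The ratio of MYC to this sum describes both sides together and carries no test. In wt MET it was 2.08 ± 0.227 at 0 h, 1.60 ± 0.0899 at 3 h, 3.01 ± 0.138 at 6 h and 2.36 ± 0.0191 at 12 h. It was thus lowest at 3 h and highest at 6 h. In MET∆14 the ratio was 1.02 ± 0.102 at 0 h, 1.70 ± 0.132 at 3 h, 1.87 ± 0.0571 at 6 h and 0.62 ± 0.149 at 12 h. Here it was higher at 3 and 6 h than at 0 h and lowest at 12 h. MYC per kb stood at 46.9, 55.2 and 44.8 at 0, 3 and 6 h, and all 5 repressors had a lower mean at 3 and 6 h than at 0 h. With the length of all exons in place of the longest transcript, the order of the times within each line was the same, with 0.998 and 0.568 at 0 and 12 h in MET∆14.

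**Figure D3:**
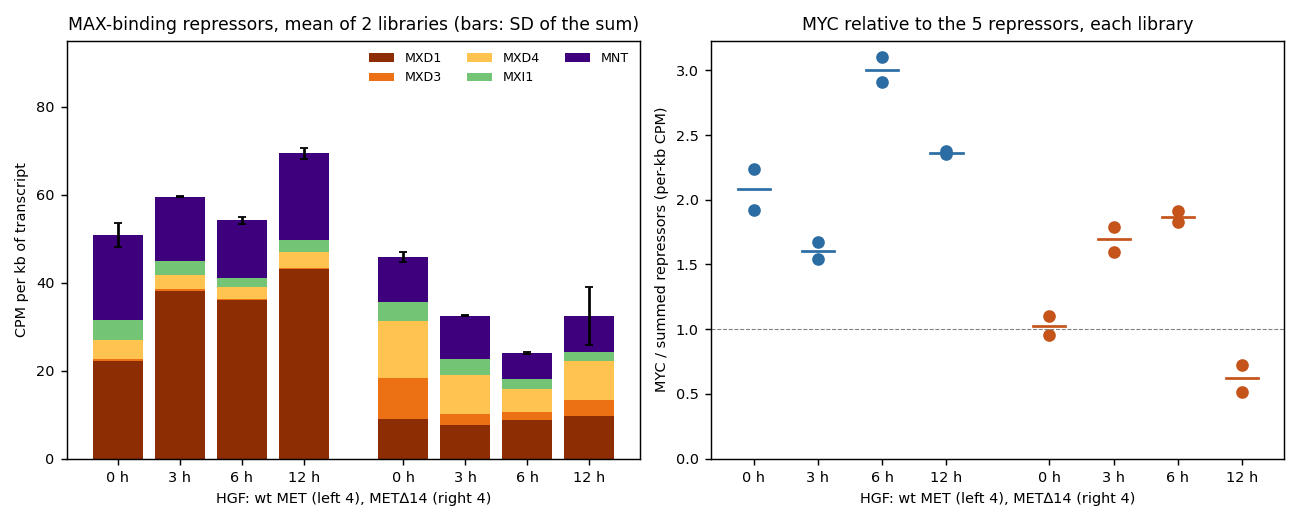
Left, summed level of the 5 MAX-binding repressors in CPM per kb (y axis), mean of 2 libraries with the SD of the sum as bars, for 0, 3, 6 and 12 h of HGF in wt MET (left 4 bars) and MET∆14 (right 4 bars). Right, MYC divided by that sum (y axis) in each library, with the mean as a short line and a dashed line at 1, which the MET∆14 libraries of 12 h lay under with a mean of 0.62.

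For the listed genes below, a mean response is the average of the log2 fold changes at 3, 6 and 12 h, with its SE, and the adjusted p beside it is that of a change at any time. The cofactors and other relatives of the network, such as the SIN3 and deacetylase subunits used by the repressors and the chromatin factors used by MYC, were read from a list of 28 genes, 27 of them tested. At any time 10 were called higher and 8 lower in wt MET (median mean response 0.05), and 6 higher and 9 lower in MET∆14 (median 0.03), where the median of all genes was -0.05 in each line. Over all genes 40.3% were called in wt MET and 54.1% in MET∆14, and the MET∆14 share of this list, 55.6%, was at that background. The counts called in both lines moved when single libraries were left out, as did those over all genes tested. The medians of the list then ran from 0.01 to 0.12 in wt MET and from -0.04 to 0.04 in MET∆14. In wt MET the largest rises were those of BPTF, a nucleosome remodelling subunit that binds MYC (mean log2 fold change 0.68, SE 0.143, any-time adjusted p = 0.0098, and 0.09 without wt MET 0 h replicate 2), and of CDC73, a subunit of the PAF1 elongation complex (0.53, SE 0.06, 3.71e-05). RUVBL1, an ATPase of MYC-bound acetyltransferase complexes, fell by 0.71 (mean -0.71, SE 0.0779, 1.62e-05), and the acetyltransferase KAT2A had -0.68 (0.0275, 0.189 without wt MET 0 h replicate 1). In MET∆14 the deacetylase HDAC2 (0.54, SE 0.0668, 5.01e-05) and WDR5, a MYC-binding scaffold (0.51, SE 0.0756, 0.000207), rose. SIN3A, the corepressor that MXD proteins recruit (-0.59, SE 0.074, 1.98e-05), and its partner SAP30 (-0.41, SE 0.102, 0.00117) fell. Exons of RUVBL1 share 13.8% of their bases with genes of the other strand, and those of KAT2A 10.7% with a gene of the same strand.

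Regulators of the stability of MYC mRNA or protein gave a list of 27 genes, 26 tested. In wt MET 6 were higher and 8 lower (median -0.10), in MET∆14 10 higher and 7 lower (median 0.10), and the response differed between the lines for 18, where the shares over all genes were 40.3%, 54.1% and 37.6%. The 8 lower in wt MET were 4 without wt MET 12 h replicate 1 and 5 without wt MET 0 h replicate 2. USP36, a nucleolar deubiquitinase that stabilises MYC, rose in both lines, with mean responses of 0.71 in wt MET (SE 0.104, adjusted p = 6.74e-05) and 0.98 in MET∆14 (SE 0.11, 1.06e-05). FBXW7, the ubiquitin ligase subunit that marks MYC for degradation, fell in MET∆14 by 0.80, 0.85 and 0.88 at 3, 6 and 12 h (mean -0.85, SE 0.0666, 1.04e-06). In wt MET its mean was -0.03 (any-time adjusted p = 0.561), and the response differed between the lines (interaction adjusted p = 0.00015). IGF2BP2, a binding protein that protects MYC mRNA, rose by 0.88 in MET∆14 (SE 0.0846, 6.57e-06), and AURKA, a mitotic kinase that can shield MYC proteins from degradation, had a mean of -0.72 (SE 0.0736, 4.53e-06). PLK1, a mitotic kinase, had -1.85 in wt MET (SE 0.12, 6.61e-08). USP37 (0.79) and STUB1 (-0.60) changed in wt MET, and their exons share 32.8% and 42.5% of their bases with genes of the other strand.

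Genes that MYC is known to activate, most of them for ribosome assembly, nucleotide synthesis or growth, numbered 51, all of them tested. In MET∆14, 40 were higher and 6 lower at some time, with a median mean response of 0.68, and in wt MET 10 were higher and 14 lower, with a median of -0.10, beside 25.6% and 28.5% of all genes in MET∆14 and 19.2% and 21.1% in wt MET. The response differed between the lines for 44, 42 of them more positive in MET∆14, beside 37.6% and 20.3% of all genes. With each library left out in turn, 36 to 43 were called higher in MET∆14 at a median of 0.63 to 0.70. In wt MET the median then ran from -0.18 to -0.02. The wt MET count called was less stable, and the wt MET count over all genes tested moved in these fits as well. At 0 h, 37 of the 51 were lower in MET∆14 than in wt MET and 11 higher, beside 39.6% and 40.6% of all genes.

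By time, the activated genes in MET∆14 had medians of 0.53 at 3 h, 0.86 at 6 h and 0.57 at 12 h, when MYC stood at 0.23, -0.07 and -1.26. At 12 h, 37 were higher than at 0 h, against 18.3% of all genes, and 5 lower. From 6 to 12 h, 23 of the 51 fell and 0 rose, beside 10.3% and 8.3% of all genes, with a median of -0.31. In wt MET the medians were -0.07, -0.20 and -0.07, when MYC stood at -0.15, 0.62 and 0.63. ODC1, the first enzyme of polyamine synthesis, rose in both lines, by a mean of 2.09 in MET∆14 (SE 0.172, adjusted p = 8.37e-07) and 1.28 in wt MET (SE 0.161, 0.000117). RRP12, a ribosome export factor, rose by 1.49, 1.87 and 1.17 at 3, 6 and 12 h in MET∆14 (mean 1.51, SE 0.0769, 9.23e-09). SLC7A5, the large neutral amino acid transporter, followed another course, with 0.21, 0.07 and -1.48 in MET∆14 (any-time adjusted p = 1.14e-07), and SHMT1 had a mean of -0.42 (0.000781). In wt MET the ribosome assembly factor UTP20 rose by 0.68 (SE 0.0968, 0.000464), and BOP1, also a ribosome assembly factor, and the DNA repair nuclease APEX1 had -0.60 (5.58e-05) and -0.56 (2.09e-05). The E-box stood in the start windows of 21 of 41 activated genes with a window (51.2%), beside the 12.4% of tested genes given above.

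Genes that MYC is known to repress, 21 tested of 22, were lower in MET∆14 for 14 and higher for 4 (median -0.35), beside 28.5% and 25.6% of all genes, and in wt MET higher for 4 and lower for 5 (median 0.00). The wt MET share called, 42.9%, was near the 40.3% of all genes, and the 5 lower were 3 without wt MET 3 h replicate 1 or 12 h replicate 2. CCNG2, an inhibitory cyclin and FOXO target, had the largest fall in MET∆14 (mean -1.61, SE 0.122, adjusted p = 2.28e-07), and the CDK inhibitor gene CDKN1B had -0.71 (SE 0.077, 1.72e-05). CDKN1A (0.62, 5.93e-05), the p21 inhibitor, and NDRG1 (0.61, 0.000221), a stress-induced gene, were higher. In wt MET the antiproliferative gene BTG1 (0.94, 3.37e-06) and the stress gene GADD45B (0.84, 0.000944) rose, and the chaperone gene CLU had -0.43 (0.000133).

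Targets of MondoA and MLX were 14 listed genes, 12 tested. In wt MET 6 were higher and 4 lower (median 0.21), and in MET∆14, where MLX and MLXIP rose, 3 were higher and 5 lower (median -0.12). Over all genes 19.2% were higher and 21.1% lower in wt MET, and 25.6% and 28.5% in MET∆14, so that the 3 of 12 higher in MET∆14 were at the background. TXNIP, the inhibitor of glucose uptake that is the best known MondoA target, was lower in both lines, by means of -0.90 in wt MET (SE 0.139, adjusted p = 0.000105) and -0.69 in MET∆14 (SE 0.117, 0.000964). It is also on the list of repressed genes. KLF10, an early response zinc finger factor, rose in wt MET by 2.34, 1.86 and 0.79 at 3, 6 and 12 h (mean 1.66, SE 0.068, 5.82e-11) and had a mean of -0.25 in MET∆14 (interaction adjusted p = 1.36e-08). HK2, the inducible hexokinase, rose in MET∆14 by 1.46 at 3 h (any-time adjusted p = 3.01e-07), and in wt MET its mean of 0.24 was not called (0.424). PFKFB3, a regulator of glycolysis, rose in wt MET, by 1.43 at 6 h, with -0.08 at 12 h (mean 0.95, 4.89e-08), and had 0.21 in MET∆14 (0.0474, lost without any of 13 single libraries). PDK4, a brake on pyruvate oxidation, had -1.85 in wt MET (3.71e-05), and IRS2, an insulin receptor adaptor, -0.52 in MET∆14 (0.00022).

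**Figure D4:**
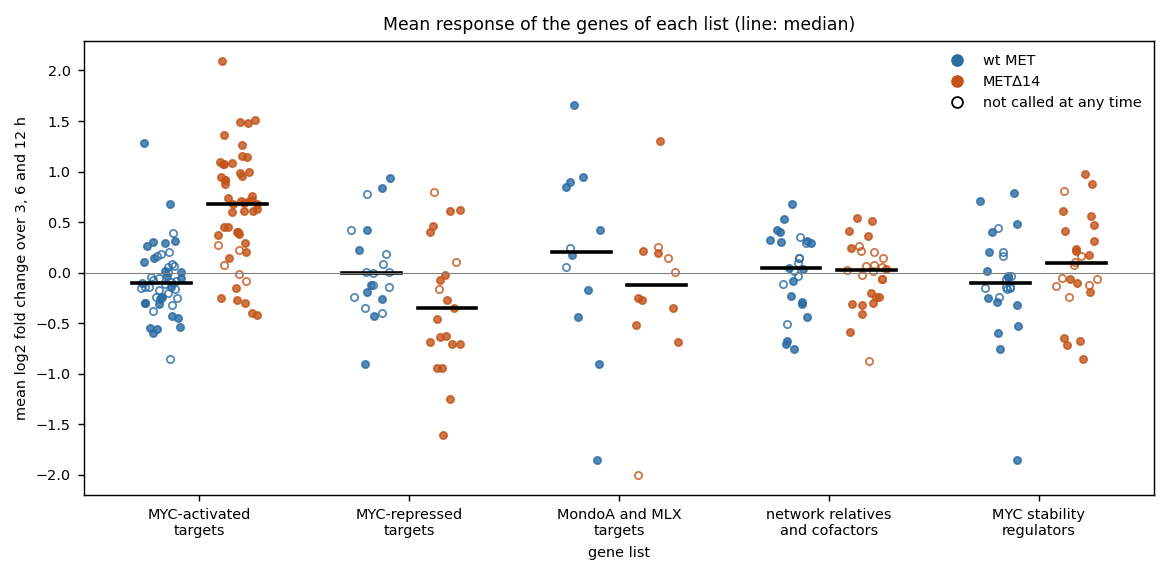
Mean log2 fold change over 3, 6 and 12 h (y axis) of the tested genes of 5 lists (x axis), wt MET in blue and MET∆14 in orange, filled where called at any time, with the median as a black line. The median of the MYC-activated genes lay at 0.68 in MET∆14 and at -0.10 in wt MET.

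The genes whose pattern was most like that of MYC were found by Pearson's r over the 16 libraries, with log2 CPM centred on the mean of each line, among 8570 genes. The first 4 were GADD45A (r = 0.919), ME1 (0.891), GOT1 (0.889) and CARS1 (0.887). GADD45A, a growth arrest and stress gene on the list of genes repressed by MYC, had 0.10, 0.18 and 0.39 at 3, 6 and 12 h in wt MET and 0.35, 0.18 and -0.74 in MET∆14. ME1 and GOT1 are metabolic enzymes and CARS1 loads cysteine on its tRNA. All 4 had a positive 12 h log2 fold change in wt MET (0.23 to 0.68) and a negative one in MET∆14 (-0.74 to -0.41). Such signs go with their selection in these same libraries for a pattern like that of MYC, and are not a separate result. With Spearman's rho in place of Pearson's r, 1 of the first 5 by Pearson's r stayed among the first 5. These values describe libraries that share lines, times and scaling.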

How the data were processed

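The authors deposited 1 table of raw read counts per gene for 16 libraries, made against hg38. The submitters' processing notes list STAR 2.5.0 and RSEM 1.3.2 without saying what each was used for, so the counts may be rounded estimates. The annotation and the use of strand were not given in the sources used here. Columns of wt MET were matched to samples although their line name is spelled slightly differently from the titles, and 0 columns lacked a sample. Amplified wt MET libraries were not analysed here.

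Genes were kept by filterByExpr (minimum count 10, minimum total 15). Counts were scaled by TMM and fitted with edgeR 4.0.16 (limma 3.58.1, R 4.3.3), with 1 coefficient for each of the 8 conditions over all 16 libraries, using robust quasi-likelihood tests with Benjamini-Hochberg adjustment over all genes tested and a threshold of 0.05. The common biological coefficient of variation was 0.0868. Joint tests asked for a change at any time in a line and for a response that differed between the lines, and an additive model of line and time was fitted beside them. Log2 CPM used a prior count of 2. CPM per kb used the longest GENCODE transcript, and start windows came from RefSeq. Scripts were tested on simulated data.

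The 10 genes and the 5 gene lists were chosen with earlier results of these data known. The text names all 10 network genes, the 2 largest rises and 2 largest falls per list and line among called genes whose mean log2 CPM reached 3, and the 5 genes most like MYC, 1 of which is not reported here. HK2, KLF10 and FBXW7 values in the other line are given for comparison. Alternatives were DESeq2 1.42.0, its size factors in edgeR, other filters, a fold threshold, a replicate block, each line alone and each library left out. The promoter motifs and the list counts without single libraries were chosen after the data had been seen. Figures were drawn with matplotlib 3.10.9.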

Additional observations from a re-analysis of the deposited data

Results flagged for a closer look

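The response to HGF differed between the lines for 7 of the 10 network genes. The test was edgeR's quasi-likelihood test of the interaction, with Benjamini-Hochberg adjustment over all genes. It called 37.6% of all genes tested, 20.3% with a more positive mean response in MET∆14 and 17.3% with a more negative one. The adjusted p was 3.83e-07 for MYC, 0.000641 for MXD1 and 0.0268 for MXD3, with mean responses in MET∆14 lower than in wt MET by log2 differences of -0.73, -0.86 and -0.78. It was 0.000425 for MLX, 0.0105 for MAX, 0.0411 for MLXIP and 0.00368 for MYCL, with differences of 0.92, 0.32, 0.11 and 0.05. For MYCL and MLXIP the mean difference was near 0, and the joint test does not say at which time the responses differed. At 3 h neither difference was called by edgeR's test (0.84 for MYCL, adjusted p = 0.426, and -0.20 for MLXIP, 0.498). At 12 h the mean level of MYCL, at low counts, was above 0 h in wt MET (1.29 against 0.644 CPM). In MET∆14 it was below 0 h (2.15 against 2.88 CPM). The MLXIP interaction was lost without some single libraries. MET status and the other differences between the lines cannot be told apart.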

How the results depend on the processing

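Most of the 436 mean responses recomputed under alternatives kept direction and side of the threshold (397), 32 lost their call, 4 gained one and 3 changed sign, all 3 on values that were not called. When a log2 change of 1 or more was also required, the network genes changed at any time numbered 2 in wt MET and 5 in MET∆14, and 2 in the additive model, since a stricter threshold keeps fewer genes. The share of all genes at that threshold was not computed. Without a filter on low counts the additive model called 9, beside 5641 of the 23045 genes then tested, and the cause was not tested. Leaving out single libraries moved the counts of network genes called, except at 0 h, and moved the counts over all genes tested as well. The mean response of MAX in wt MET then ranged from -0.20 to 0.10 and that of MXD1 in MET∆14 from -0.14 to 0.05. With the replicate block the counts were 6 in wt MET, 7 in MET∆14, 8 for the difference in response, 9 at 0 h and 5 in the additive model. Of all 15067 genes, the same fits called 5819, 7857, 5377, 12026 and 4105 in that order. Replicate numbers did not pair the samples: over 28 pairs of conditions the correlation of deviations ran from -0.159 to 0.111, with a median of -0.0206. Depth limits MYCL and MXD3 in wt MET, with 26 counts or fewer per library, and MYCL in MET∆14, with 24 to 62.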
